A study of Mus musculus with 6 samples.

Results

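Transcripts of 10 genes of the epithelial-mesenchymal transition (EMT) were followed in mouse kidney tubular cells with and without knockdown of Glis2: the transcription factor genes Snai1, Snai2, Snai3, Zeb1, Zeb2, Twist1, Twist2, Prrx1 and Foxc2, and Vim, which encodes vimentin. The members are all probes whose annotated symbol is one of these 10 genes, which gave 22 of the 45281 probes on the Illumina bead array, for 10 of 19057 genes with a single symbol. All 6 samples were immortalized proximal tubular cells of strain background C56BL/6, infected with a lentivirus for stable expression of a short hairpin RNA and harvested 7 days later. The 3 samples named Control carried an anti-GFP hairpin and the 3 named Glis2KD an anti-Glis2 hairpin, so every group had been infected and carried a hairpin, and neither was uninfected. Nothing in the labels says that the samples within a group were infected or grown separately, and the p-values therefore reflect the spread among these samples alone, which may be technical. Effects of losing Glis2, a Krüppel-like zinc finger factor whose loss causes cystic and fibrotic kidney disease, cannot be told apart from off-target effects of its hairpin or from chance differences among the infected cells.

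EMT is the programme by which a polarised epithelial cell gives up its junctions and takes on the shape, motility and matrix production of a mesenchymal cell. The Snail zinc finger proteins and the Zeb zinc finger homeodomain proteins bind E-box motifs and repress epithelial genes such as the one for E-cadherin, whereas the Twist proteins are basic helix-loop-helix factors that pair with E-proteins. Prrx1, a paired-type homeobox factor, and Foxc2, a forkhead factor, promote mesenchymal states, and vimentin is the intermediate filament protein used as the classic marker of the end state. In the kidney these factors are silent or low in mature tubules and are known for their return in injured and fibrotic tubules, where a partial form of the programme occurs.

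Intensities in the deposited table include background, whose most frequent value was 113. The background limit was 137, that value plus 3 SD, and a probe was above background if the mean of its 6 values passed it. Of the 22 probes, 6 were above background, 1 each for Snai1, Snai2, Snai3, Zeb2, Twist1 and Twist2, against 39.9% of all probes. No probe of Zeb1, Prrx1, Foxc2 or Vim was. In the knockdown, Snai2 and Twist2 were lower, by 27.4% and 34.4% of their control means before background is taken off, and 0 members were called higher. By limma at an adjusted p under 0.05, 2 of the 22 probes were called (9.09%), where the background over all probes is 15.6% (7.84% higher and 7.76% lower), and 3 had an unadjusted p under 0.05, of which 1, a Snai1 probe, was higher. Both called probes were among the 6 above background, a class in which 37.5% of all probes were called. The median difference of the 22 probes was 0.03 on the log2 scale, beside 0.00 over all probes.

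Promoter windows are shown for the changed Twist2, for Snai1, whose protein is known to bind E-boxes in its own promoter, and for Vim, the marker that stayed at background. From RefSeq's promoter table on build GRCm38.p6, 9 windows of 6 of the 10 genes were used. It held no entry for Snai2, Snai3 and Foxc2, and Zeb1 was left out, so nothing is said here of its promoter. Each line gives the 250 bases before the annotated start, 5′ to 3′ on the gene's strand, with matches of the searched motifs in capitals: chr1:91801211-91801460 for Twist2, chr2:167537945-167538194 for Snai1 and chr2:13574061-13574310 for Vim, all on the plus strand.
Twist2: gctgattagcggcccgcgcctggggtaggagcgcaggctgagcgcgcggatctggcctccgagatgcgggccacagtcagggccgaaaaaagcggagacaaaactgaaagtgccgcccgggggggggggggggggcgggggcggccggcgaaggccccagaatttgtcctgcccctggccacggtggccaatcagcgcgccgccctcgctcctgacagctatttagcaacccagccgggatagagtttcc
Snai1: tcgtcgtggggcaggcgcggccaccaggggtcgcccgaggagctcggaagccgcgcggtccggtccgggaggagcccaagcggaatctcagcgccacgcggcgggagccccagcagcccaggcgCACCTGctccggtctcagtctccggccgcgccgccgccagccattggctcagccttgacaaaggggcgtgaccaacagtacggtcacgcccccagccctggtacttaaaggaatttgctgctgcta
Vim: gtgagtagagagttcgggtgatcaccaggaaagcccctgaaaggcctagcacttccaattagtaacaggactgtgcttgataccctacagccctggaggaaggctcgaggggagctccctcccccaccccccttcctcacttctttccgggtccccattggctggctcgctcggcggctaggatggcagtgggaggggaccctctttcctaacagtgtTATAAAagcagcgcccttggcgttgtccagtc

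The 4 motifs were searched on both strands, and no 2 of their matches overlapped in these 3 windows. The E-box CACCTG that Snail and Zeb proteins bind was found in 17.2% of all 32851 windows of this length, and among the 9 member windows it matched in that of Snai1, at 126 bases before the start. The TATA element TATAAA, found in 12.4% of all windows, matched in those of Twist1 and of Vim, in Vim at 32 bases before the start. The Gli consensus GACCACCCA and the Glis core TGGGGGGT, found in 0.225% and 1.36% of all windows, matched in none of the 9, which says only that these letters are not in these windows. The window of Twist2 was 68.8% G and C and that of Snai1 70.0%, beside a median of 52.4% over all windows. A match is a description of the letters and not a measured binding site.

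**Figure D1:**
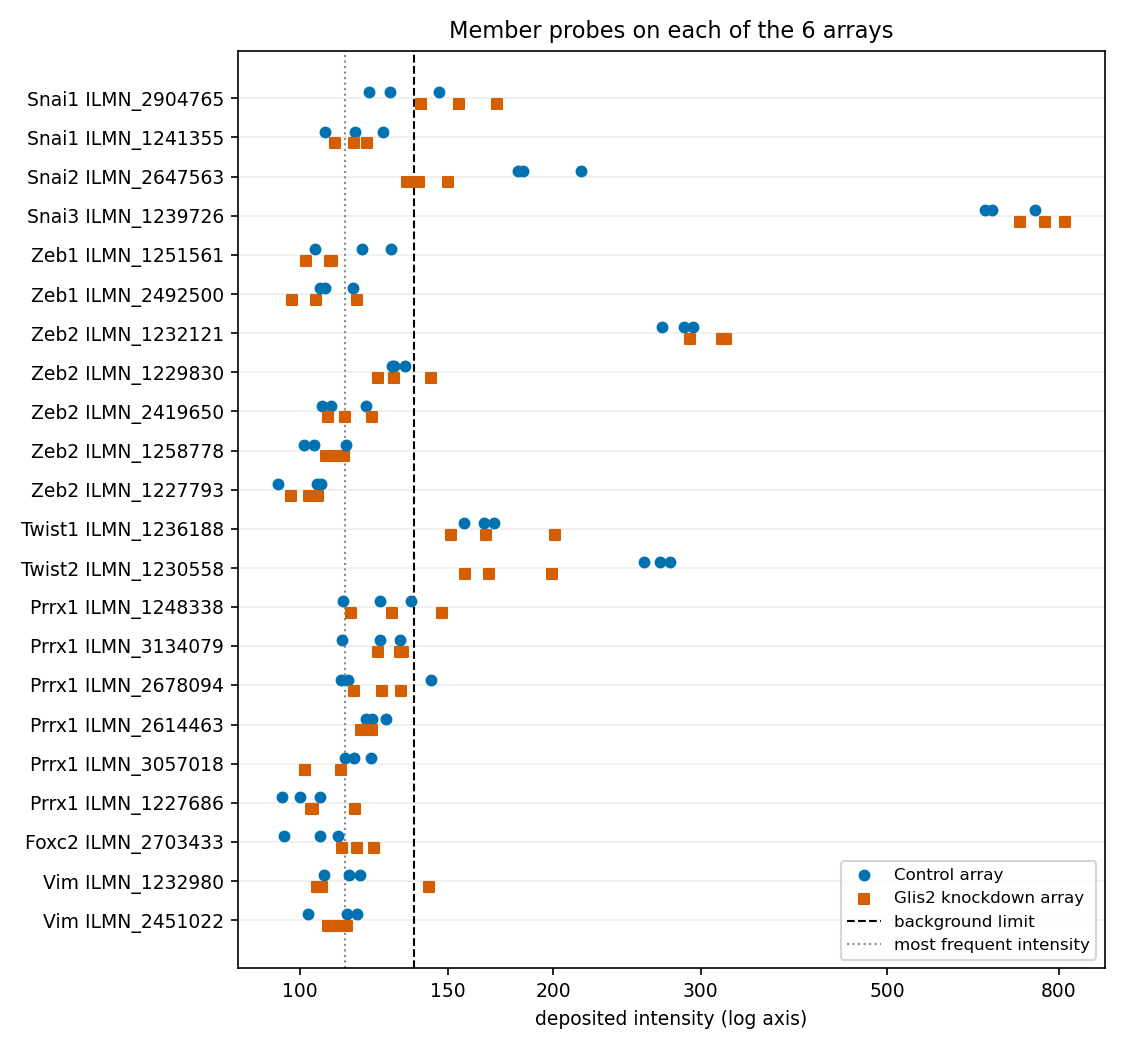
Deposited intensity (horizontal log axis) of each of the 22 member probes on the 3 control arrays (blue circles) and the 3 Glis2 knockdown arrays (orange squares), with the background limit of 137 (dashed) and the most frequent intensity of 113 (dotted). Most probes lie left of the limit on every array, and the control and knockdown points stand apart for Twist2, all to the right of it, and for Snai2, with 1 knockdown array to its left.

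In the Snail family Snai2 was called and Snai1 and Snai3 were not. Snai2, which encodes Slug, is known in kidney tubules as a factor induced by injury signals. On its only probe, ILMN_2647563, the control arrays read 182, 216 and 184 and the knockdown arrays 134, 139 and 150.2. All 3 knockdown arrays were below all 3 control arrays, and 1 of them lay under the background limit. The means were 194 ± 19.2 in control and 141 ± 8.34 in knockdown (SD, n = 3), which gave a log2 fold change of -0.46 (SE 0.089) at an adjusted p = 0.000533 by limma. With the most frequent intensity taken off both means, the reduction was 65.5% in place of 27.4%. When that value was subtracted array by array before the fit, the log2 fold change became -1.55 and the call was lost, with limma's adjusted p = 0.0587. Normexp correction gave -0.86 and kept the call, with an adjusted p = 0.0186.

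Snai1 encodes Snail, the family member best known as a direct repressor of the E-cadherin gene. Its brighter probe, ILMN_2904765, read 128, 146 and 121 on the control arrays and 155, 172 and 139 on the knockdown arrays. It was above the limit on all 3 knockdown arrays and on 1 control array, and the groups overlapped between 139 and 146. The log2 fold change was 0.24 ± 0.094 (SE), with a 95% interval from 0.04 to 0.43 and limma's adjusted p = 0.112, so Snai1 did not pass the test over all probes. It passed without control replicate 2 and without knockdown replicate 3, with limma's adjusted p = 0.0426 and 0.0475. The other probe of the same RefSeq transcript, ILMN_1241355, stayed between 107 and 126 on every array, under the limit, with means of 116 ± 9.28 and 115 ± 5.13.

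Snai3 encodes a Snail relative best known from lymphoid cells and muscle. Its probe ILMN_1239726 was well above background on all 6 arrays, at 654, 749.8 and 667 in control and 719, 815 and 770.1 in knockdown. The ranges overlapped, and the log2 fold change of 0.15 had a 95% interval from -0.02 to 0.33 and limma's adjusted p = 0.319. The difference of the means was larger than either SD (52.0 and 48.0) but did not pass the test, and the interval does not reach the decrease measured for Snai2.

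On the intensities as deposited, Twist2 showed the larger of both called differences. The order was kept with normexp correction (-0.97 against -0.86 for Snai2). It was reversed with the most frequent intensity subtracted before the fit, where Snai2 gave -1.55, or taken off both means, where Snai2 was reduced by 65.5%. Twist2 encodes a basic helix-loop-helix factor known from dermal and skeletal mesenchyme. Probe ILMN_1230558 read 256, 275 and 268 on the control arrays and 168, 157 and 199.6 on the knockdown arrays, above the background limit on all 6. The groups did not overlap, and the highest knockdown array, replicate 3, was still under the lowest control array. The means were 267 ± 9.63 and 175 ± 22.1 (SD, n = 3), and the log2 fold change was -0.62 ± 0.092 (SE), with limma's adjusted p = 2.45e-05. With the most frequent intensity taken off both means, the reduction was 59.7% in place of 34.4%. Subtraction before the fit gave -1.37 without a call (limma's adjusted p = 0.0715), and normexp correction -0.97 with one (0.0133).

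Twist1, the paralogue of Twist2 that is required for neural crest and limb mesenchyme, gave no such difference. On its probe ILMN_1236188 the control arrays read 165, 157 and 170.3 and the knockdown arrays 151, 166 and 201. The spread of the knockdown arrays took in all 3 control values, and knockdown replicate 3 was the highest. The log2 fold change was 0.07, with a 95% interval from -0.13 to 0.27 and limma's adjusted p = 0.801. That interval does not reach the estimate for Twist2, although the difference between both genes was not itself tested.

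**Figure D2:**
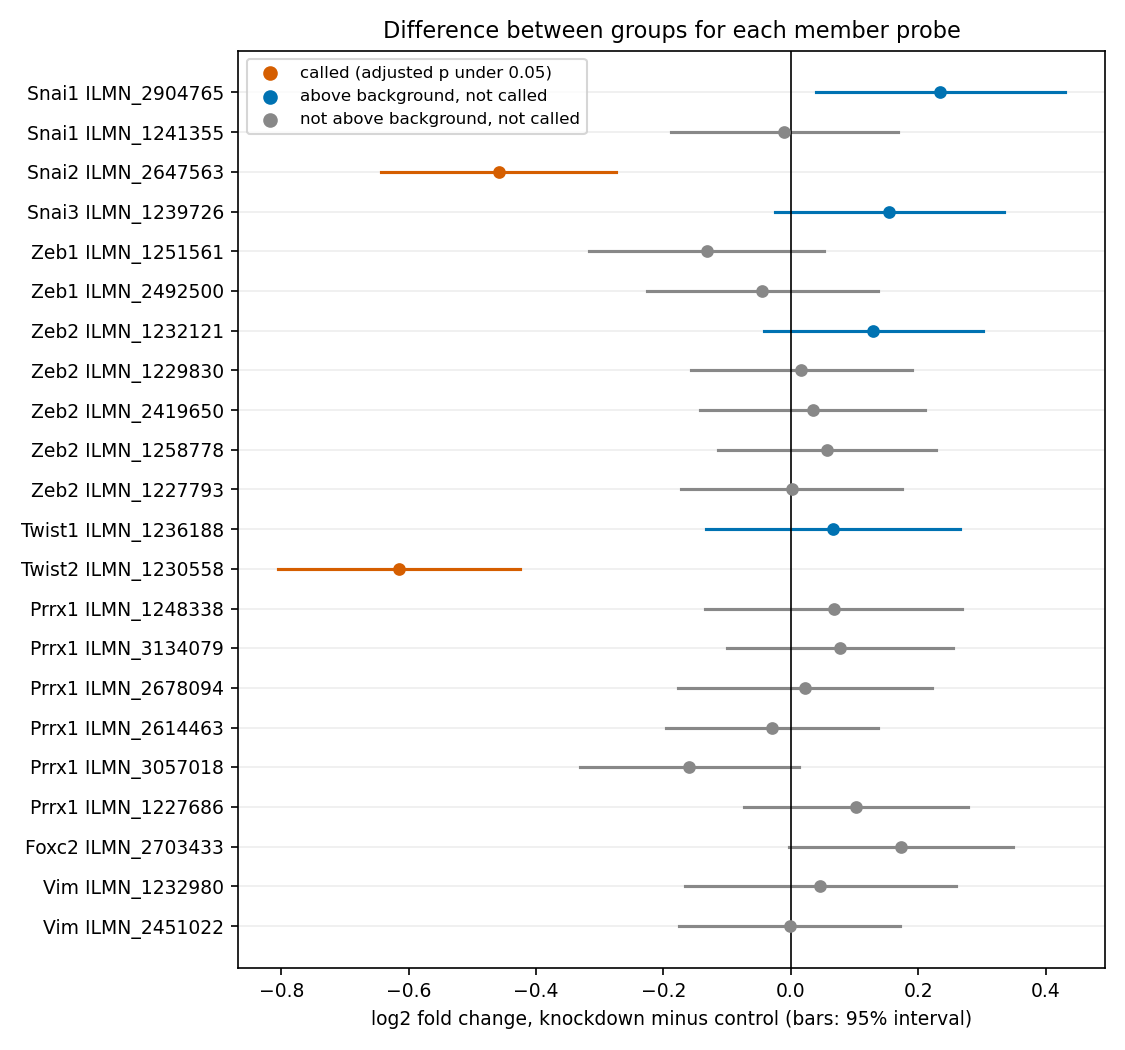
Log2 fold change, knockdown minus control (horizontal axis), of each member probe with its 95% interval from limma; orange probes were called, blue ones were above background without a call and grey ones were not above background. The intervals of Snai2 and Twist2 lie wholly below 0, and that of the brighter Snai1 probe lies above 0 from 0.04 to 0.43 without passing the adjustment over all probes.

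The Zeb genes encode repressors that are held down in epithelia by the miR-200 microRNAs. Zeb2 had 5 probes, of which 1 was above background. That probe, ILMN_1232121, read 269, 294 and 286 in control and 318, 321 and 291 in knockdown. The ranges touched, since knockdown replicate 3 lay under control replicate 2, and the log2 fold change of 0.13 had a 95% interval from -0.04 to 0.30 and limma's adjusted p = 0.415. The other probes of Zeb2 ran from 94.1 to 143, with log2 differences between 0.00 and 0.06. Among them, ILMN_1229830 exceeded the limit on 1 array, at 143 on knockdown replicate 3. Of the 3 probes annotated to the same RefSeq transcript of Zeb2, therefore, 1 gave a signal above background and the other two did not.

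Zeb1 was not above background on either probe. ILMN_1251561 read 104, 118 and 128 in control and 108, 102 and 109 in knockdown, and ILMN_2492500 ran from 97.8 to 117. The log2 differences of -0.13 and -0.04 were between values at background, and neither was called. Zeb1 lies on chromosome 18, where the 50 nearest genes above background had a median log2 fold change of -0.20. For the other members that median ran from -0.15 around Prrx1 to 0.01 around Snai3, with -0.09 around Snai2 and -0.14 around Twist2. Taken relative to these neighbours, Snai2 and Twist2 kept their calls, at -0.37 and -0.48 (limma's adjusted p = 0.00328 and 0.000381), and Snai1 and Zeb2 were called higher, at 0.27 and 0.26 (0.0412 and 0.0342).

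Prrx1, Foxc2 and Vim complete the set at background. The 6 probes of Prrx1 ran from 95.1 to 147 over all arrays, and 2 of them exceeded the limit on 1 array each, at 147 on knockdown replicate 3 and 143 on control replicate 1. Their log2 differences ran from -0.16 to 0.10, and none was called. On ILMN_3057018 the groups did not overlap, at 113, 116 and 122 against 101, 101 and 112, all under the limit. Foxc2 read 111, 106 and 95.6 in control and 122, 112 and 117 in knockdown, also without overlap and also under the limit, with limma's adjusted p = 0.228. In all, the groups stood apart on 4 of the 22 probes, where 26.3% of all probes did so, and 2 of the 4 were the called ones.

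Vimentin did not register on this array in either group. Its probe ILMN_2451022, annotated to the RefSeq transcript, read 117, 102 and 114 in control and 108, 110.4 and 114 in knockdown, which is the level of the most frequent intensity. Probe ILMN_1232980, annotated to a cDNA clone, read 114, 118 and 107 and then 106, 142 and 105. Only the 142 of knockdown replicate 2 passed the limit. The log2 fold changes were 0.00 and 0.05, with 95% intervals from -0.18 to 0.17 and from -0.17 to 0.26. The table thus gives no measured vimentin level to compare, and whether these probes can detect the transcript was not tested.

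**Figure D3:**
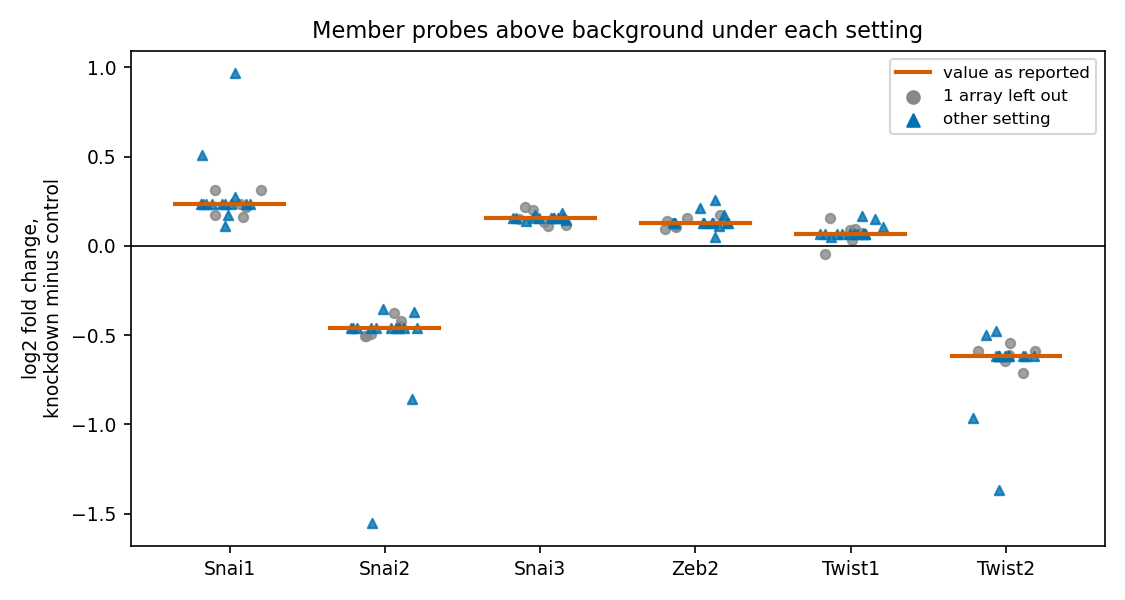
Log2 fold change, knockdown minus control (vertical axis), of the 6 member probes above background as reported (orange bar), with 1 array left out (grey circles) and under the other processing settings (blue triangles). Snai2 and Twist2 stay below 0 under every setting run, from -1.55 to -0.35 and from -1.37 to -0.48, and Snai1 stays above 0, from 0.11 to 0.97.

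For the called members, the genes whose centred log2 values differed least over the 6 arrays were searched among 9664 genes above background. Around Twist2 these were Anxa11, Tmem30a and Sap130, with root mean square differences of 0.037, 0.060 and 0.060. Around Snai2 they were Rnf14, Rab5c and Triqk, at 0.024, 0.033 and 0.043. Their log2 fold changes lay between -0.59 and -0.57 and between -0.46 and -0.44, and in a 2-group design likeness is mainly this shared size of change.

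For the factors and partners around the members, each gene was taken at its brightest probe, a choice under which 22% of all genes and 42.2% of those above background were called. By direction, 2075 of all 19057 genes were called higher and 2120 lower. Being above background rests on the mean of all 6 arrays, so a gene can pass through 1 group alone. Of 16 other EMT factors and paralogues measured, 2 rose and 3 fell, with a median log2 fold change of 0.02, beside 0.00 over all genes. The forkhead genes Foxq1 and Foxc1, the second a paralogue of Foxc2, fell from 882 ± 56.0 to 252 ± 8.66 and from 2649 ± 332 to 1044 ± 51.7 (SD, n = 3), log2 fold changes of -1.81 and -1.34 with limma's adjusted p = 2.12e-13 and 2.33e-10. Tcf4, an E-protein that pairs with Twist factors, had -1.27 and lies on chromosome 18 among neighbours with a median of -0.34. Sox4, an SRY-related factor of EMT, rose by 0.69 on its brightest probe. Its other probe, above background on all 6 arrays, gave 0.15 without a call (limma's adjusted p = 0.362). Tcf3, a second E-protein named after its value was seen, rose by 0.45. The E-protein gene Tcf12, also above background, gave 0.02 without a call (limma's adjusted p = 0.948).

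Of 24 cofactors and regulators of the Snail, Zeb and Twist proteins, 5 rose and 4 fell, and the median was 0.06. The called share was 37.5%, beside 22% of all genes, and 47.4% beside 42.2% for genes above background. The Id proteins, which have no DNA-binding region and take E-proteins away from factors such as Twist, rose in all 3 of the genes above background. Id1 rose from 533 ± 85.1 to 1434 ± 83.2, Id3 from 172 ± 20.6 to 401 ± 53.7 and Id2 from 788 ± 44.4 to 1510 ± 16.6, log2 fold changes of 1.44, 1.22 and 0.94 with limma's adjusted p between 2.23e-10 and 1.04e-08. The other two probes of Id2 were called higher as well. Ctbp2, a corepressor that Zeb proteins recruit, rose by 0.52. With normexp correction the 9 calls of this list became 4.

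**Figure D4:**
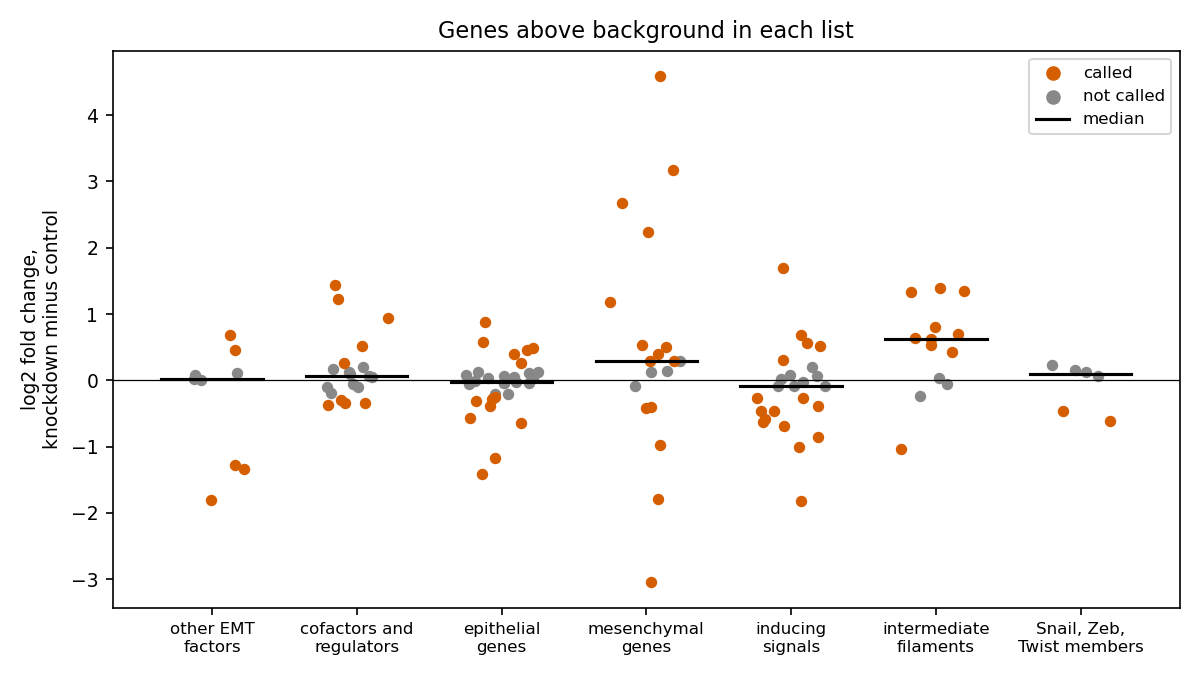
Log2 fold change, knockdown minus control (vertical axis), of the genes above background in each of 6 gene lists and of the 6 member probes above background, with called genes in orange, the others in grey and the median as a black bar. The mesenchymal list spreads from -3.05 for Axl to 4.59 for Tnc, whereas the Snail, Zeb and Twist members lie between -0.62 and 0.24.

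Among 34 epithelial genes that EMT factors are known to repress, 6 rose, 8 fell and 20 were not called, with a median of 0.02. The called share was 41.2%, beside 22% of all genes, and 46.7% beside 42.2% for genes above background. Over the 30 genes above background the median was -0.02. Cdh1, the E-cadherin gene and best known Snail target, fell from 3960 ± 96.4 to 3052 ± 399, a log2 fold change of -0.38 with limma's adjusted p = 0.00407. Its log2 fold change was about as large with the most frequent intensity subtracted (-0.40) and with normexp (-0.39), but without a call (limma's adjusted p = 0.140 and 0.178), and its second probe gave -0.16 without a call. Kidney cadherin Cdh16 and claudin Cldn1 had -1.41 and -1.16, the first with 1 of 3 knockdown arrays above the background limit, so that its size depends on background, while the polarity gene Llgl2 and the simple epithelial keratin gene Krt8 rose by 0.89 and 0.57. Krt8 lies among neighbours with a median of 0.32 on chromosome 15. The 14 calls of this list became 7 with subtraction and 6 with normexp.

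Of 35 mesenchymal genes that usually accompany vimentin, 12 rose, 5 fell and 18 were not called, with a median of 0.14. The called share was 48.6%, beside 22% of all genes, and 78.9% beside 42.2% for genes above background. Over the 19 genes above background the median was 0.29. Tnc, the matrix glycoprotein tenascin C, Acta2, smooth muscle actin, and the collagen gene Col6a1 rose by 4.59, 3.17 and 2.67, and the receptor tyrosine kinase gene Axl had -3.05. The control means of Tnc and Acta2, 139 and 145, were near the background limit, so the size of their change depends on background. Dimmer probes of both gave smaller changes, such as 0.69 for ILMN_2485085 of Tnc and 1.35 for ILMN_2923445 of Acta2, although ILMN_2463180 of Tnc gave 4.21. Cdh2, the N-cadherin gene, was lower at -0.42 (limma's adjusted p = 0.00541). The decrease was larger but not called with subtraction (-1.30) and normexp (-0.88). It was smaller and not called with the mean of its probes and relative to its chromosome 18 neighbours (-0.17 each) and without knockdown replicate 3 (-0.28), and over these 5 settings limma's adjusted p lay between 0.0627 and 0.215. Fn1, fibronectin, read 13729 ± 1114 and 15154 ± 1245 and was not called (0.14, adjusted p = 0.404 by limma). With subtraction the 17 calls became 10.

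Of 35 genes of signalling pathways linked to EMT factors, 5 rose and 11 fell. The list was drawn up for inducing signals but also holds Smad6, Smad7 and Bmp7, which oppose them, so these counts do not measure induction. The called share was 45.7%, beside 22% of all genes, and 66.7% beside 42.2% for genes above background. The median was 0.00, and -0.09 over the 24 genes above background. Tgfb1 and Tgfb2, ligands that induce the Snail genes in tubular cells, had -0.08 and -0.02 and were not called, the second near the background limit at 140.1 ± 10.2 and 138 ± 5.26. Their receptor gene Tgfbr1 fell from 5454 ± 672 to 2720 ± 452, a log2 fold change of -1.01, and the activin subunit gene Inhba rose by 1.69. Bmp4 had -1.82, and Ctnnb1, beta-catenin, had -0.86 on its brightest probe. A dim probe of Ctnnb1 went the other way, at 0.47, while the other two were called lower. With normexp the 16 calls became 9.

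Intermediate filament and partner genes, the class to which vimentin belongs, held 9 that rose and 1 that fell among 19 measured. The called share was 52.6%, beside 22% of all genes, and 76.9% beside 42.2% for genes above background. The median of this list was 0.16, and 0.63 over the 13 above background, beside -0.01 over all genes above background. Background was judged on the mean of all 6 arrays, and Krt14 passed through the knockdown arrays alone. The 0.63 and the 76.9% may therefore partly reflect this filter. Nes, nestin, which assembles together with vimentin, rose from 1490 ± 146 to 3744 ± 325, by 1.33 on the log2 scale, with limma's adjusted p = 2.52e-10. The basal keratin gene Krt14 was under the limit on all 3 control arrays and was at least 2.37-fold higher, and Krt17 rose by 1.34 with 1 of 3 control arrays above the limit, so that its size depends on background. Lmnb1, lamin B1, had -1.04 and lies on chromosome 18 among neighbours at -0.33.

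Across the series, Glis2 itself was lower, at -0.55 and -0.36 on its probes with both groups apart. Arrays correlated at r = 0.995 within groups and from 0.980 to 0.982 between them over all probes. Of 20 proximal tubule markers measured, 4 were above background (Aqp1, Mme, Dab2 and Pax8), and Lrp2, Cubn, Slc34a1 and Hnf4a were not. The summed intensity of those 4 ran from 14006 to 15844 in control and from 3454 to 3798 in knockdown. Of the 20 markers, 3 were called lower and 0 higher, a share of 15% beside 22% of all genes. Fibroblast and stromal markers were above background in 4 of 16 cases, with Pdgfra, Pdgfrb and Col1a1 not among them. Their sums overlapped, from 655 to 730 and from 699 to 798, while 3 of the 16 were called higher and 1 lower. Among the 4 above background, 2 were called higher and 1 lower. Endothelial markers were above it in 2 of 14 cases, without Pecam1 and Cdh5, with 1 called higher and sums from 535 to 565 and from 662 to 754. Immune markers were above it in 1 of 11 cases, without Ptprc, with that 1 called higher and at 166 to 205 and 218 to 277. Podocyte markers were above it in 3 of 6 cases, without Nphs1, with all 3 called higher and sums from 1352 to 1547 and from 2109 to 2239. Distal tubule and collecting duct markers were above it in 3 of 16, with 0 called and sums from 1532 to 1668 and from 1389 to 1569. Beside the 22% of all genes, the called share was 25% of stromal, 7.14% of endothelial, 9.09% of immune and 50% of podocyte markers. In those 4 lists the markers named are ones not above background, and the others are given by count only. The part of other cell types in the differences of Snai2 and Twist2 was not tested.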

How the data were processed

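Each deposited value is the linear intensity of a probe on an array. What software and normalization the authors used is not stated in the labels, which name Cy3 and a standard Illumina hybridization. The 6 columns already share 1 distribution (log2 medians within 0.00029), and background had not been subtracted (lowest intensity 85.4, highest 52227). Values were floored at 16, which altered 0 of them, and taken to log2. The 2 groups were set against each other with limma 3.58.1 (lmFit, eBayes without trend; R 4.3.3), with Benjamini-Hochberg adjustment over all 45281 probes at 0.05. Of these, 34885 had 1 symbol in the platform annotation, 18 several and 10378 none, and 34807 matched a RefSeq table of assembly GRCm38.p6. The background limit is the most frequent intensity plus 3 SD, with the SD from the values below it. A fold against a group wholly under the limit is a bound, with the limit in its place. Precision is limited by having 6 arrays. The array's probe sequences were not used here. The fit was tested on simulated data, where it recovered 16% of planted log2 changes of 0.25 and 94% of those of 0.5. A small difference without a call is therefore not shown to be absent.

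Named genes were the members, Glis2, up to 4 called genes above background per list by smallest p, Cdh1, Cdh2, Fn1, Tgfb1 and Tgfb2, and the 3 genes of most like pattern. The members and lists were chosen with earlier results of these data known. Alternatives were a replicate block, other normalizations, background corrections, floors, filters, variance models, units tested, neighbouring genes, background limits and leaving out each array.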

Additional observations from a re-analysis of the deposited data

How the results depend on the processing

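Snai2 and Twist2 kept their direction under all 20 alternatives and their call under 19. They lost it with the most frequent intensity subtracted, where 0 members were called by limma (2 at an unadjusted p under 0.05) and 3447 of all probes were, against 2 and 7065. Normexp correction called 3292 probes, 1 probe per gene 4290 genes and the mean of a gene's probes 3739, each with 2 members. Relative to 50 neighbouring genes, 4 members were called. With 1 array left out, 2 to 3 members and 6022 to 6521 probes were called. Deviations of same-numbered arrays correlated from -0.0857 to -0.0414, and those of differently numbered arrays from -0.00634 to 0.0626. No pairing by replicate number was seen, but with 3 arrays per group this cannot decide whether the samples were paired. With the replicate block 6790 probes and the same number of members, 2, were called. The count of member probes above background was 6, 7 with a limit at 2 SD, 5 at 5 SD and 6 with a limit for each array. Uncalled values changed sign: ILMN_2678094 of Prrx1 was -0.22 with subtraction, ILMN_2451022 of Vim 0.0112 with normexp, and Zeb1 and Tgfb2 0.0683 and 0.0532 relative to neighbours. With 1 array left out, the log2 fold changes that crossed 0 ran from -0.0683 to 0.0471 for ILMN_1241355 of Snai1, -0.11 to 0.0138 for ILMN_2492500 of Zeb1, -0.0425 to 0.0616 for ILMN_1229830 of Zeb2, -0.0127 to 0.0862 for ILMN_2419650 of Zeb2, -0.0528 to 0.0326 for ILMN_1227793 of Zeb2, -0.0483 to 0.16 for ILMN_1236188 of Twist1, -0.0258 to 0.15 for ILMN_1248338 of Prrx1, -0.0416 to 0.14 for ILMN_2678094 of Prrx1, -0.0977 to 0.12 for ILMN_1232980 of Vim, -0.0594 to 0.0381 for ILMN_2451022 of Vim, -0.16 to 0.0126 for ILMN_2711461 of Tgfb1 and -0.0791 to 0.0253 for ILMN_1225196 of Tgfb2. The cause was not tested. Signal over background limits 16 of the 22 probes, whose differences are between values at background.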
